A study of Homo sapiens with 26 samples.

Results

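The 6 ribosome profiling libraries of Huh7 cells treated with 0.3 µM PF-06446846 in the first study of the series are described here, 3 harvested after 10 min and 3 after 60 min. They were taken by the dose, time and assay in their labels and are 6 of the 26 samples of the series. Huh7 is an established human hepatocellular carcinoma line, and PF-06446846 is a small molecule that stalls ribosomes during elongation on a small set of nascent chains. The series profiled ribosomes in cells given vehicle (DMSO), 0.3 µM or 1.5 µM compound for 10 or 60 min, with 3 biological replicates in each group, and a second study added further ribosome profiling and mRNA libraries at 60 min with vehicle and 1.5 µM. In all groups of the first study the medium was exchanged for fresh prewarmed medium that held compound or vehicle, and cycloheximide was present in the wash and in the lysis buffer. The 10 and 60 min harvests therefore stood at different times after a medium change as well as after the compound, and at 0.3 µM the times since both cannot be told apart.

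Ribosome profiling sequences the short stretches of mRNA covered by ribosomes after nuclease digestion, and each read marks the position of a ribosome on a coding sequence (CDS). A change in the reads of a gene can come from more mRNA or from more ribosomes on each mRNA, and because no mRNA libraries at 0.3 µM were used here, these cannot be told apart, nor can a change in the share of cells that express a gene and a change in the amount per cell. A compound that stalls ribosomes leaves more reads upstream of the stall and fewer downstream of it. Cells given fresh serum can induce immediate early genes, which encode transcription factors, phosphatases and signaling inhibitors and whose mRNAs are made and degraded within minutes to hours. Replication-dependent histone mRNAs end in a conserved stem-loop in place of a poly(A) tail, and mRNAs of ribosomal proteins start with a 5′ terminal oligopyrimidine tract (TOP) through which nutrients and growth signals set their translation.

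The libraries held 10113624, 21498137 and 7775919 CDS reads at 10 min (replicates 1, 2 and 3) and 13871589, 16370320 and 12905244 at 60 min, over 12325 transcripts. Within a time, replicates correlated across transcripts with Spearman coefficients of 0.984 to 0.990, and no pair of libraries was near-identical. Same-numbered 10 and 60 min libraries deviated together from their group means, with Pearson r of 0.363, 0.352 and 0.431 over 9847 transcripts. With 3 libraries a time, same-numbered libraries can match best by chance, so this does not establish that the numbers mark pairs. The comparisons below were made within replicate numbers as labelled. Levels are given as reads of a CDS scaled to the TMM-normalized library size (CPM), and changes as log2 of 60 min over 10 min. Of 13 hepatocyte identity markers, 11 were in the files. Their summed level ran from 29523.3 to 35562.8 CPM at 10 min and from 28354.5 to 35140.5 CPM at 60 min. AFP, the fetal plasma protein of liver, stood at 14048, 10802 and 10603 CPM at 10 min and at 14150, 10439 and 9346 at 60 min, and of 14 markers of other cell types 4 were in the files and 3 had enough reads to be tested. The summed level of those other-cell markers ran from 1101 to 1602 CPM at 10 min and from 1362 to 1849 CPM at 60 min. Most of it came from LYZ and much of the rest from ACTA2 (420 to 764 CPM over the libraries). None of these markers passed the test.

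Of 11177 transcripts tested, 107 differed between 10 and 60 min at 0.3 µM (0.957%; edgeR quasi-likelihood test with the replicate number as a block, Benjamini-Hochberg adjusted p under 0.1). Among them, 75 (0.671%) were higher and 32 (0.286%) were lower at 60 min. The group of 75 was made of 40 replication-dependent histones and of 35 other transcripts, 9 of them members of a list of immediate early genes. The log2 fold changes ran from -1.07 to 1.38, and all 107 moved in the same direction in 3 of 3 pairs. Over all 11177 transcripts, 1650 were higher and 1481 were lower in 3 of 3 pairs. The test was made within these pairs, so it favours transcripts whose pairs agree. For 61 of the 107 the 3 libraries of one time did not overlap those of the other, against 923 of all 11177 tested (8.26%). Without the replicate block, 1 transcript (TXNIP) passed, and the number of transcripts with an unadjusted p under 0.05 went from 860 to 353. Leaving out the replicate 3 pair lowered the count from 107 to 33, and leaving out the replicate 1 pair raised it to 169. Of 35 genes named here by rule that passed, 29, 28 and 12 still passed without the replicate 1, 2 and 3 pair, and none changed direction.

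Among the transcripts that passed, the largest increase was that of DUSP1, an immediate early phosphatase that inactivates MAP kinases. Its level was 14.1, 11.6 and 24.4 CPM at 10 min and 30.8, 31.9 and 70.9 CPM at 60 min (replicates 1, 2 and 3, in this order here and below), a log2 fold change of 1.38 (SE 0.13, edgeR adjusted p = 1.51e-08). All 60 min libraries stood above all 10 min libraries. GADD45B, a stress sensor that binds the MAP kinase kinase kinase MEKK4, went from 11.2, 16.2 and 16.8 to 25.0, 32.0 and 58.0 CPM (log2 fold change 1.30, SE 0.14, edgeR adjusted p = 3.51e-07). TXNIP, an inhibitor of thioredoxin and of glucose uptake whose transcription follows glucose, went from 21.4, 23 and 15.2 to 55.8, 49.2 and 41.6 CPM (log2 fold change 1.29, SE 0.13, edgeR adjusted p = 1.61e-08). ATF3, a stress-induced transcription factor, went from 3.45, 4.95 and 4.22 to 10.0, 7.48 and 15.7 CPM (log2 fold change 1.28, SE 0.22, edgeR adjusted p = 0.00159). For all of these genes the groups did not overlap. In DUSP1, GADD45B and ATF3, replicate 3 had the highest 60 min value.

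Of 62 immediate early genes listed, 54 had enough reads to be tested, and 9 rose and 1 fell in the edgeR test. The median log2 fold change of the list was 0.12, against 0.00 over all transcripts tested. Fold changes lay above 0 in 35 of the 54, against 5674 of all 11177 transcripts (50.8%). EGR1, a zinc finger transcription factor, went from 8.76, 4.90 and 5.63 to 9.65, 10.5 and 16.5 CPM (log2 fold change 0.91, SE 0.21, edgeR adjusted p = 0.0211). CCN1, a secreted matricellular protein induced by serum, went from 39, 33.8 and 58.5 to 58.7, 57.6 and 97.7 CPM (log2 fold change 0.70, SE 0.11, edgeR adjusted p = 0.000621). In CCN1 the groups overlapped, since the 10 min library of replicate 3 lay between the 60 min libraries of replicates 1 and 2, and the increase was present within each pair. KLF10, a repressor induced by TGF-β, went from 28, 32.4 and 29.3 to 41, 41 and 58.0 CPM, without overlap (log2 fold change 0.61, SE 0.13, edgeR adjusted p = 0.00971). GADD45A, JUN and ID1 were the other members that rose, with log2 fold changes of 0.56, 0.53 and 0.43. The member that fell was ZFP36L1, which promotes the decay of mRNAs with AU-rich elements. It went from 106, 61.4 and 89.8 to 57.1, 46.6 and 77.9 CPM (log2 fold change -0.50, SE 0.12, edgeR adjusted p = 0.0271). FOS, named after its values were seen, was on average at 1.31 CPM at 10 min and 3.03 CPM at 60 min and did not pass (log2 fold change 1.12, edgeR adjusted p = 0.198).

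**Figure D1:**
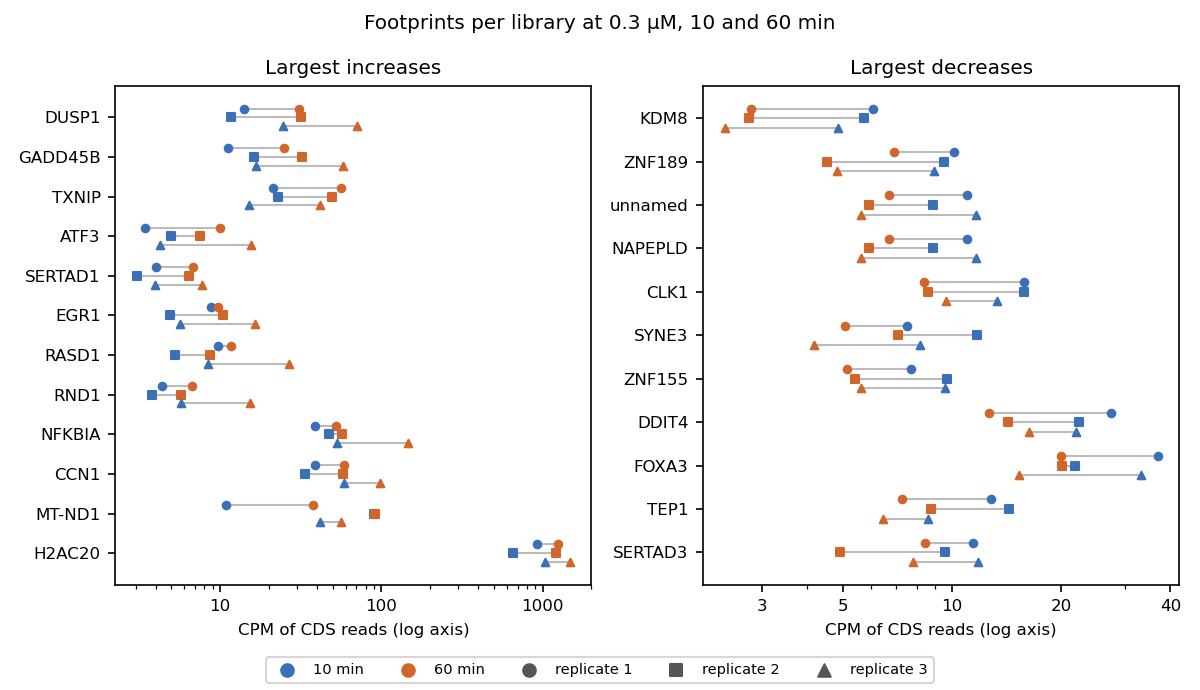
CPM of CDS reads (log axis) of the 12 transcripts with the highest and 11 of the 12 with the lowest log2 fold change among those that passed, one point per library and one line per replicate pair, blue for 10 min and orange for 60 min. Every pair moves in the same direction within a gene, and DUSP1, GADD45B and TXNIP show no overlap between the times.

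Outside this list, SERTAD1, a cofactor of E2F and cyclin D-dependent transcription, went from 4.01, 3.05 and 3.97 to 6.79, 6.41 and 7.75 CPM (log2 fold change 0.94, SE 0.22, edgeR adjusted p = 0.0292). RASD1, a dexamethasone-induced small GTPase, and RND1, also a small GTPase, each rose by 0.88 on the log2 scale (SE 0.20 and 0.21, edgeR adjusted p = 0.0179 and 0.0351). In both, the groups overlapped and the 60 min library of replicate 3 was the highest of the 6, at 26.8 CPM for RASD1 and 15.3 CPM for RND1. Of 16 NF-kB and acute phase targets tested, 2 rose and none fell, and the list median was 0.10. Both encode IκB family proteins. NFKBIA, which holds NF-kB in the cytoplasm, went from 38.8, 47.5 and 53.2 to 52.2, 57.4 and 147 CPM, with overlap (log2 fold change 0.72, SE 0.14, edgeR adjusted p = 0.00659). NFKBIZ, a nuclear member that acts with NF-kB on secondary response genes, went from 37.7, 41.1 and 27.1 to 51.1, 52.2 and 54.0 CPM, without overlap (log2 fold change 0.57, SE 0.12, edgeR adjusted p = 0.0148).

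A few of the genes that rose hold letters of known signal response elements just upstream of their start, and these are shown for DUSP1, EGR1, NFKBIA and NFKBIZ, which were picked for holding them. The matches were found by letters in RefSeq promoters of GRCh38.p14, from 250 bases before to 50 bases after the transcription start, searching both strands. The sequences below are written 5′ to 3′ on the strand of the gene, with the matched letters in capitals. DUSP1 holds the cAMP response element TGACGTCA, EGR1 holds 2 serum response CArG boxes, and NFKBIA and NFKBIZ hold NF-kB sites.
DUSP1, chr5:172771303-172771330, minus strand: gcagggcgggTGACGTCAccgccccgtc
EGR1, chr5:138465365-138465392, plus strand: ccggtcctgCCATATTAGGgcttcctgc
EGR1, chr5:138465387-138465414, plus strand: tcctgcttcCCATATATGGccatgtacg
NFKBIA, chr14:35404812-35404839, minus strand: gactggcttGGAAATTCCCcgagcctga
NFKBIZ, chr3:101827758-101827785, plus strand: ttttggtctGGGAATTTCCagtgtgcag
Promoters were matched for 24 of the 35 transcripts that rose and were not listed histones, too few to read a share from. Among the 24, 1 held the cAMP response element, 2 a CArG box and 4 an NF-kB site. Of 8574 promoters of tested genes, 3.69% held the cAMP response element, 1.04% a CArG box and 6.57% an NF-kB site. Also searched were the core TGACGT of the cAMP response element, the E-box CACGTG and the TATA box TATAAA. These were found in 3, 4 and 8 of the 24, against 12.5%, 10.6% and 5.20% of the 8574. NF-kB sites were also found in AHNAK and FOXA3, which fell, so a match describes the promoter and does not show that a factor was bound.

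Replication-dependent histone mRNAs encode the core and linker histones that package newly replicated DNA. All 58 listed histone transcripts were tested, and 40 rose and none fell (edgeR, adjusted p under 0.1). Their median log2 fold change was 0.39, and 57 had fold changes above 0. Of the 58, 52 were higher in 3 of 3 pairs, against 1650 of all 11177 transcripts. For 14 of the 58, the 60 min libraries stood above all 10 min libraries. Over all 11177 transcripts, the groups did not overlap in 923 (8.26%), counting both directions. The summed level of the list was 42133, 45385 and 54203 CPM at 10 min and 53470, 61899 and 67359 CPM at 60 min. It was higher at 60 min within each pair, and the highest 10 min library was above the lowest 60 min library. Reads that fit several near-identical histone genes were counted at each of them, so that these transcripts are not independent and the levels of single copies are uncertain, and the sum counts a shared read more than once.

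The core histone classes all contributed. Of 18 H2B transcripts 16 rose, of 13 H2A transcripts 11, of 11 H4 transcripts 8 and of 11 H3 transcripts 5, with median log2 fold changes of 0.43, 0.39, 0.39 and 0.35. Of the 5 linker histones H1 none passed, and their fold changes ran from -0.04 to 0.21. The largest histone change was in H2AC20, which went from 916, 659 and 1027 to 1251, 1205 and 1471 CPM (log2 fold change 0.61, SE 0.09, edgeR adjusted p = 0.000279). H4C9 went from 319, 457 and 435 to 465, 608 and 778 CPM (log2 fold change 0.60, SE 0.10, edgeR adjusted p = 0.000698). H3C1 went from 410, 359 and 532 to 568, 615 and 756 CPM (log2 fold change 0.59, SE 0.09, edgeR adjusted p = 0.000698). Groups did not overlap in any of these 3. The other members with the smallest p were H2BC17, H4C16 and H2BC26, at log2 fold changes of 0.56, 0.53 and 0.50.

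The stem-loop at the 3′ end of histone mRNAs is shown for 3 transcripts that rose, since it is the element that sets these mRNAs apart from polyadenylated ones. It was searched as the stem GGCTCT, the loop TTTN and the stem AGAGCC without gaps on the mRNA strand in the last 300 bases of the GENCODE v44 transcripts (GRCh38). The lines give the mRNA strand as DNA letters, 5′ to 3′, with the stem-loop in capitals.
H2AC20, chr1:149887386-149887411, plus strand: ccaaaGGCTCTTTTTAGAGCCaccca
H3C1, chr6:26020927-26020952, plus strand: gcaaaGGCTCTTTTCAGAGCCaccac
H2BC17, chr6:27893865-27893890, plus strand: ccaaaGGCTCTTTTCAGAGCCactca
These letters were present in 38 of 56 histone transcripts with a sequence and in 39 of 11176 transcripts overall (0.349%). They were found in 24 of 38 histones that rose and in 14 of 18 that did not pass. The median log2 fold change was 0.38 in histones with the letters (n = 38) and 0.40 in those without (n = 18).

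mRNAs of the translation machinery showed small positive fold changes, of which few passed the test. Of 51 large-subunit ribosomal protein genes 1 rose, and of 33 small-subunit transcripts none passed (edgeR). The median log2 fold changes were 0.14 and 0.14, and that of 26 other TOP transcripts was 0.09. Fold changes lay above 0 in 48 of the 51 large-subunit and 30 of the 33 small-subunit members, against 5674 of all 11177 transcripts (50.8%). RPL28, a large-subunit protein, was the member that rose, from 532, 546 and 618 to 704, 717 and 831 CPM, without overlap (log2 fold change 0.41, SE 0.09, edgeR adjusted p = 0.0169). In the summed level of large-subunit mRNAs the groups did not overlap, with 39231 to 44146 CPM at 10 min and 45164 to 46040 CPM at 60 min. The small-subunit sums overlapped, at 26433 to 31892 and 30670 to 34112 CPM.

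Among polyamine genes, 1 of 9 tested rose and none fell, and the median was 0.19. The member was ODC1, ornithine decarboxylase, which makes putrescine in the first step of polyamine synthesis and is a short-lived protein induced by growth signals. It went from 203, 194 and 196 to 294, 238 and 283 CPM, without overlap (log2 fold change 0.45, SE 0.10, edgeR adjusted p = 0.0169). Both ferritin chains, the iron storage proteins whose mRNAs are held back from ribosomes by iron regulatory proteins when iron is low, were also higher at 60 min, and were named after their values were seen. FTH1, the heavy chain, went from 215, 259 and 216 to 322, 315 and 354 CPM (log2 fold change 0.52, SE 0.10, edgeR adjusted p = 0.00572). FTL, the light chain, went from 211, 159 and 164 to 273, 216 and 221 CPM (log2 fold change 0.42, SE 0.10, edgeR adjusted p = 0.0271). The groups did not overlap in either.

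The 32 transcripts that fell held 1 member each of the immediate early, integrated stress response and cholesterol lists, and the others lay outside the lists. KDM8, a JmjC-domain hydroxylase, had the largest decrease of these 32, from 6.06, 5.74 and 4.86 to 2.79, 2.77 and 2.37 CPM, without overlap (log2 fold change -1.07, SE 0.25, edgeR adjusted p = 0.026). DDIT4, an inhibitor of mTORC1 induced by stress, glucocorticoids and amino acid shortage, went from 27.4, 22.3 and 22 to 12.7, 14.3 and 16.3 CPM, without overlap (log2 fold change -0.73, SE 0.15, edgeR adjusted p = 0.0085). It was the single member of 26 integrated stress response genes tested that passed, and the median of that list was -0.06. CLK1, a kinase of SR splicing factors, went from 15.8, 15.8 and 13.3 to 8.37, 8.61 and 9.63 CPM, without overlap (log2 fold change -0.76, SE 0.17, edgeR adjusted p = 0.0168). FOXA3, a liver forkhead factor, went from 36.9, 21.8 and 33.3 to 19.9, 20.1 and 15.3 CPM, without overlap (log2 fold change -0.69, SE 0.15, edgeR adjusted p = 0.0152).

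The remaining named decreases were between -0.84 and -0.66 on the log2 scale and included the zinc finger genes ZNF189 (-0.84) and ZNF155 (-0.74), the nesprin SYNE3 (-0.74), the telomerase-associated protein TEP1 (-0.66) and SERTAD3 (-0.66). NAPEPLD, which makes N-acylethanolamines, fell by 0.77 on the log2 scale (SE 0.19, edgeR adjusted p = 0.0393). An unnamed transcript had the same counts in all 6 libraries as NAPEPLD, so that both stand for the same reads. AHNAK, a very large scaffold protein, and IVNS1ABP, an actin-binding Kelch protein, were named after their values were seen. AHNAK went from 487, 310 and 222 to 223, 227 and 191 CPM, with overlap and with the largest drop in replicate 1 (log2 fold change -0.60, SE 0.12, edgeR adjusted p = 0.0058). IVNS1ABP went from 37.6, 36.5 and 39.4 to 24.0, 24.1 and 26 CPM, without overlap (log2 fold change -0.62, SE 0.12, edgeR adjusted p = 0.00659).

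Other pathways showed few calls. Of 27 cholesterol synthesis and uptake genes 1 fell, MSMO1, a sterol C4-methyl oxidase, which went from 254, 201 and 129 to 187, 177 and 88.9 CPM, with overlap (log2 fold change -0.38, SE 0.10, edgeR adjusted p = 0.0798). None of 31 hepatocyte plasma proteins, 23 ER chaperone and unfolded protein response genes, 15 heat shock genes and 15 p53, clock and glucocorticoid targets passed the edgeR test, and their medians were -0.00, -0.02, -0.06 and 0.07. The members of these lists with most reads had log2 fold changes of -0.07 for AFP, -0.08 for APOB, 0.07 for CALR, -0.05 for HSP90B1, -0.30 for HSPA8, -0.06 for HSP90AB1, 0.27 for GDF15 and 0.14 for CRY1. At unadjusted p under 0.05 there was 1 plasma protein, 1 ER gene, 2 heat shock genes and 1 gene of the p53, clock and glucocorticoid list. Over all 11177 transcripts there were 860. Fold changes lay below 0 in 12 of 15 heat shock genes, 17 of 23 ER genes and 17 of 27 cholesterol genes. They did so in 19 of 26 integrated stress response genes, 16 of 31 plasma proteins and 6 of 15 p53, clock and glucocorticoid targets. Over all transcripts 5503 of 11177 lay below 0.

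Mitochondrially encoded mRNAs are translated by mitochondrial ribosomes. Of 13 members 1 rose, MT-ND1, a subunit of respiratory complex I, at 10.9, 90.4 and 41.6 CPM at 10 min and 37.5, 91.1 and 55.9 CPM at 60 min (log2 fold change 0.63, SE 0.17, edgeR adjusted p = 0.0748). The groups overlapped, and replicates differed by more than the times. The median of the list was 0.29, but 1 of the 13 was higher in 3 of 3 pairs. The summed level of the list was 541, 4668 and 1859 CPM at 10 min and 1389, 3856 and 1890 CPM at 60 min, lowest in replicate 1 and highest in replicate 2 at both times.

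**Figure D2:**
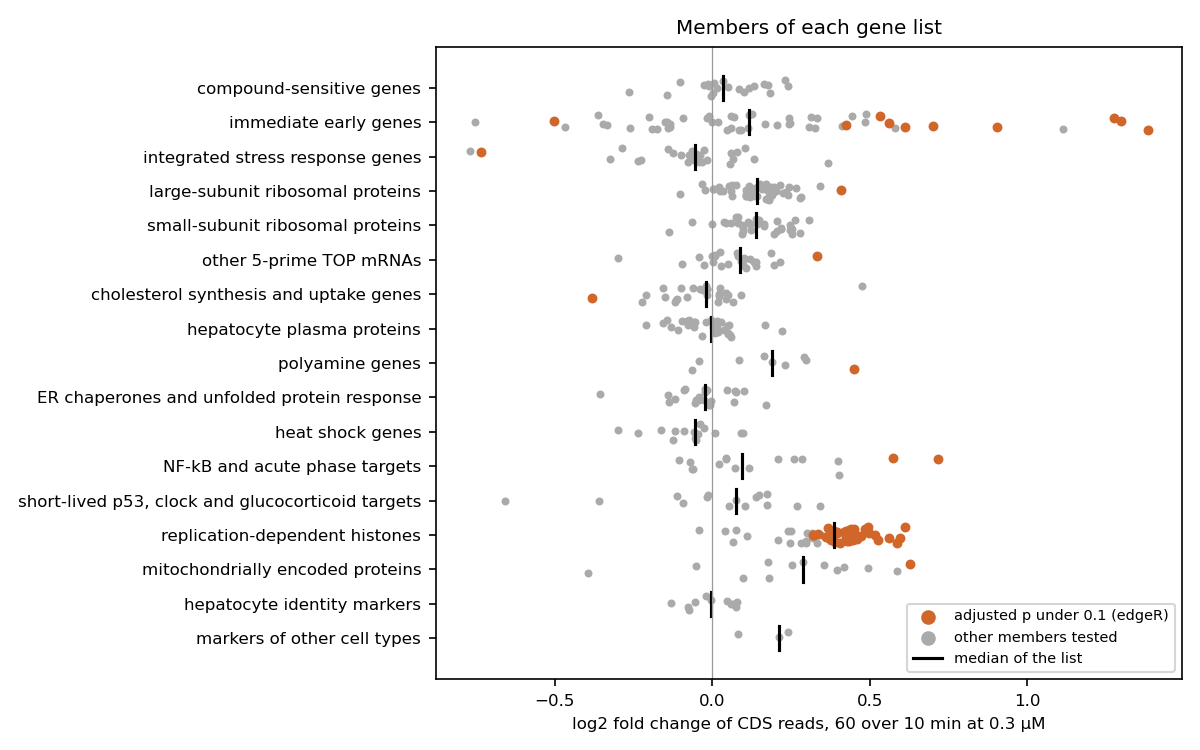
Log2 fold change of CDS reads, 60 over 10 min at 0.3 µM, for each member of each list, with one gray point per member, orange points for members with an edgeR adjusted p under 0.1 and a black bar at the list median. Replication-dependent histones sit together at a median of 0.39, while immediate early genes spread from -0.75 to 1.38.

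The same comparison of 60 with 10 min was possible in vehicle and at 1.5 µM with 3 libraries a group, none of them shared with 0.3 µM. In vehicle, 7 of 11098 transcripts passed the blocked edgeR test (0.0631%), and at 1.5 µM 2 of 10999 did (0.0182%). Without the block, 1 transcript passed at 0.3 µM, 0 in vehicle (769 at an unadjusted p under 0.05) and 2 at 1.5 µM. The blocked counts of vehicle and 1.5 µM do not show a smaller effect than at 0.3 µM, since same-numbered libraries did not deviate together throughout in vehicle (r of -0.06, -0.06 and 0.49) or at 1.5 µM (-0.20, 0.20 and 0.06). In vehicle, replicates 1 and 2 correlated when crossed (0.23 for 10 min replicate 1 with 60 min replicate 2, and 0.37 for 10 min replicate 2 with 60 min replicate 1), and only the block as numbered was fitted, in the interaction test below as well. Leaving out replicate 1 or 2 of vehicle raised its count to 429 or 98, and leaving out replicate 1 or 3 at 1.5 µM raised the count to 406 or 20. The 7 vehicle transcripts were DUSP1, TXNIP, GADD45B, CCN1, NFKBIA, ID1 and MYCN, and the 2 at 1.5 µM were TXNIP and GADD45B. All were among the 107.

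The time effect of the 107 transcripts was in the same direction in vehicle for 107 and at 1.5 µM for 100. Of all transcripts tested in both, 7050 of 11073 had the same sign at 0.3 µM and in vehicle, and 6378 of 10983 at 0.3 and 1.5 µM. The 75 transcripts that rose at 0.3 µM had a median log2 fold change of 0.45 there, of 0.45 in vehicle and of 0.20 at 1.5 µM. For the 32 that fell, the medians were -0.61, -0.55 and -0.29. The values at 0.3 µM come from the comparison that chose these transcripts. DUSP1 had time effects of 1.38, 1.33 and 1.12 at 0.3 µM, in vehicle and at 1.5 µM, GADD45B of 1.30, 1.52 and 1.48, and TXNIP of 1.29, 1.29 and 1.44.

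Histones had a median time effect of 0.39 at 0.3 µM, 0.43 in vehicle and 0.07 at 1.5 µM. At 1.5 µM the class medians were 0.33 for H2B, 0.07 for H2A, 0.03 for H4 and -0.04 for H3, and these were not tested against each other. Of the 40 histones that rose at 0.3 µM, 38 had a lower fold change at 1.5 µM. These 40 were chosen by their test at 0.3 µM, which favours lower values at any other dose. They also share reads, so the count is not one of independent transcripts. H2AC20 had log2 fold changes of 0.61, 0.38 and 0.07 at 0.3 µM, in vehicle and at 1.5 µM, H3C1 of 0.59, 0.50 and 0.07, and H2BC26 of 0.50, 0.45 and 0.43. In the same order, H2AC20 had mean levels of 867, 915 and 1337 CPM at 10 min. At 60 min it had 1309, 1195 and 1409 CPM. H3C1 had 434, 439 and 698 CPM, then 647, 634 and 745 CPM. H2BC26 had 791, 707 and 1163 CPM, then 1116, 969 and 1608 CPM. The 10 min level was thus highest at 1.5 µM in each of these genes. Levels were scaled within each dose, and doses were not tested against each other at the same time. Large-subunit ribosomal proteins had medians of 0.14, 0.13 and 0.05, and the ferritin heavy chain FTH1 had fold changes of 0.52, 0.26 and 0.61. In the test of the difference between time effects (edgeR quasi-likelihood, interaction of dose and time), 0 of 11288 transcripts differed between 0.3 µM and vehicle and 0 of 11196 between 0.3 and 1.5 µM, with 232 and 213 at an unadjusted p under 0.05. Without the block both were 0 as well, and DESeq2 also gave 0 in both, with 82 and 81 at an unadjusted p under 0.05. Among the 107, 6 had an unadjusted p under 0.05 against vehicle and 19 against 1.5 µM. The 107 were chosen by their time effect at 0.3 µM, which enters both differences and favours a low p. Histones among the 107 share reads, so these are not counts of independent transcripts. KDM8, the largest decrease that passed at 0.3 µM and so chosen in the same way, fell by 1.07 on the log2 scale. Its time effects were -0.25 in vehicle and -0.04 at 1.5 µM (unadjusted edgeR p of the differences 0.0339 and 0.0135), and these differences did not pass the adjustment.

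**Figure D3:**
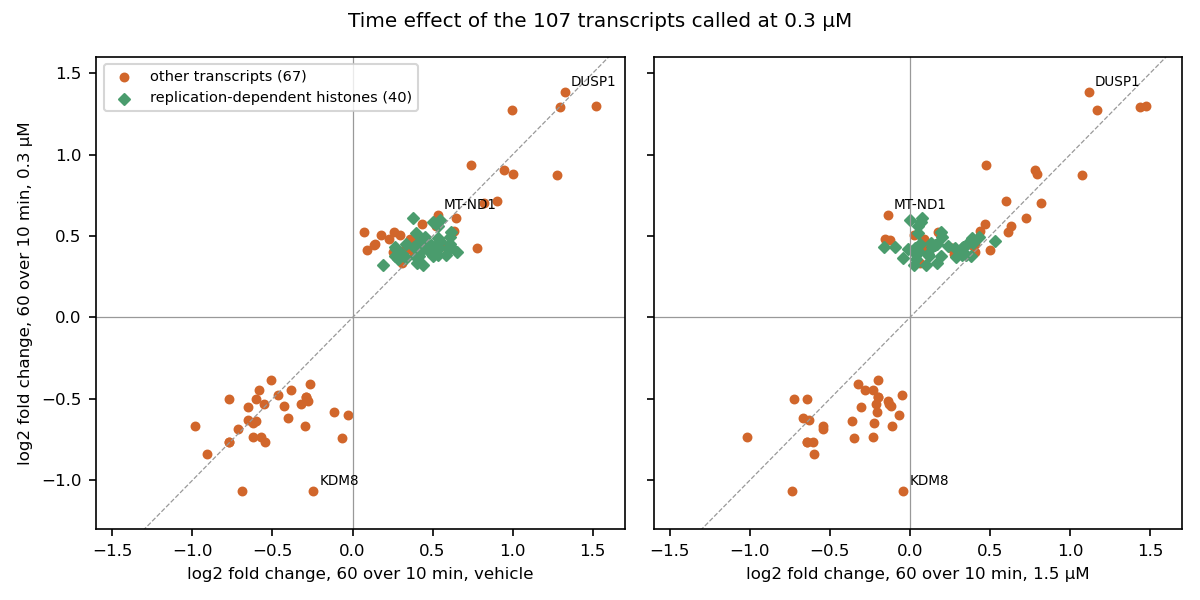
Log2 fold change, 60 over 10 min, at 0.3 µM (vertical) against that in vehicle (left) and at 1.5 µM (right) for the 107 transcripts that passed at 0.3 µM, green for 40 replication-dependent histones, orange for 67 other transcripts (the variant histone H2AX among them), with a dashed line at equal values. In vehicle all 107 points have the sign they have at 0.3 µM, while at 1.5 µM histones spread, with medians over all listed members of 0.33 for H2B, 0.07 for H2A, 0.03 for H4 and -0.04 for H3.

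Positions within coding sequences were compared next, to see where ribosomes sat at the 2 times. Of 101058 single codons tested, 0 differed between 10 and 60 min at 0.3 µM (edgeR quasi-likelihood test against the other codons of the same CDS), and 4646 had an unadjusted p under 0.05. When the replicate 2 pair was left out, 4394 passed, 1635 of them higher and 2759 lower at 60 min. Median codon log2 fold changes were 0.54 for start codons (n = 425), 0.26 for codons 2 to 15 (n = 2091), 0.09 in the body of the CDS (n = 90489) and -0.23 for the last sense codon (n = 2471), against 0.08 over all codons. In vehicle, the medians of start and last sense codons were 0.62 and -0.12. At 0.3 µM, over CDS of at least 200 codons, the start codon stood at 0.610, 1.17 and 0.978 of the CDS mean at 10 min. It stood at 1.15, 1.37 and 1.06 at 60 min, with the largest rise in the replicate 1 pair. The density of codons 2 to 15 was higher at 60 min in the replicate 1 pair only. The n of these medians counts codons and not replicates.

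The density at the last sense codon, where ribosomes await release factors, was taken over 8031 transcripts as a multiple of the CDS mean. It was 9.41, 12.8 and 12.1 at 10 min and 8.53, 10.8 and 10.0 at 60 min, lower within each pair by 1.67 on average (SD 0.683, n = 3; two-sided exact permutation test of pairs p = 0.25, the smallest that 3 pairs allow). The groups overlapped. In vehicle the means were 11.9 and 11.3 and at 1.5 µM 9.01 and 9.16. Codons 2 to 15, the first that a new ribosome reads, had densities of 0.313, 0.444 and 0.42 at 10 min and 0.378, 0.442 and 0.405 at 60 min, with higher and lower pairs (two-sided exact permutation p = 1). Codons 51 to 150 were at a mean of 1.02 at 10 min and 1.03 at 60 min (two-sided exact permutation p = 0.75).

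**Figure D4:**
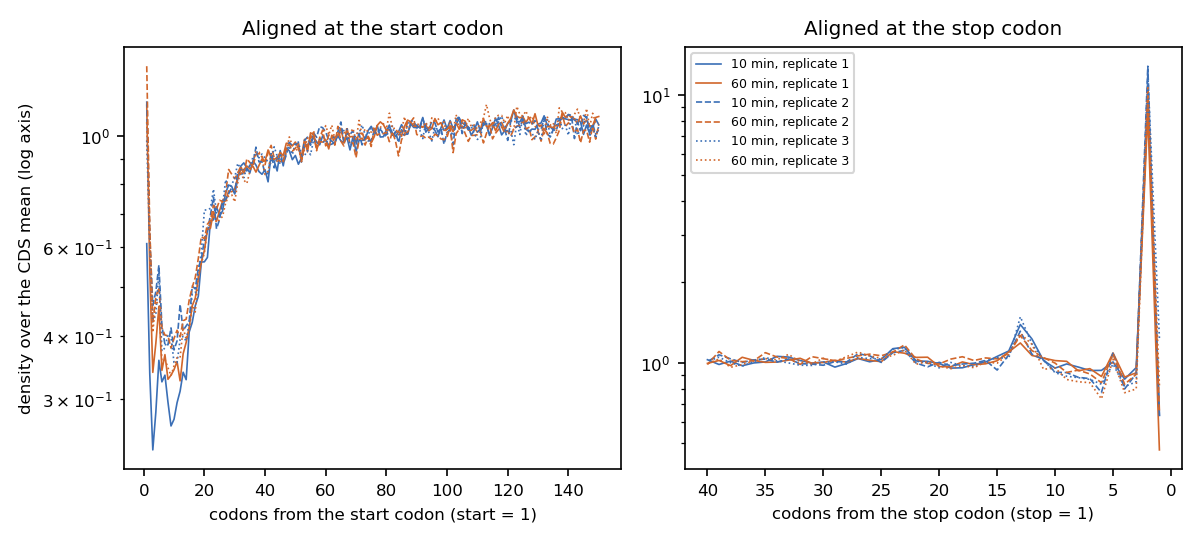
Mean read density over the CDS mean (log axis) by codons from the start codon (left) and from the stop codon (right) in each of the 6 libraries, blue for 10 min and orange for 60 min, with a line style per replicate. The lines lie together along the body, dip over codons 2 to 15, where replicate 1 at 10 min is lowest (0.313), and peak at the last sense codon, at 9.41 to 12.8 at 10 min and 8.53 to 10.8 at 60 min.

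The center of read density, the mean codon position of the reads of a CDS, was compared within pairs over 10686 transcripts. None was beyond a mean Z-score of 3 over the 3 pairs. At the same cut there were 51 when replicates were pooled without the pairing and 15 when the replicate 2 pair was left out. The pooled value is a single Z-score and the other a mean over 2 pairs. Both spread more than a mean over 3 pairs, so the cut is less strict for them and the counts are not alike. Beyond a Z-score of 2 there were 31 (0.29%), of which 28 moved toward the 5′ end, and their CDS had a median of 97 codons against 388 over all transcripts. When the first 15 and last 15 codons were left out, 5 of the 31 stayed beyond 2, and of those that had moved toward the 5′ end 2 did. RPLP1, an acidic protein of the ribosomal stalk with 90 codons, had its mean read position at codon 53.2 at 10 min and at codon 47.4 at 60 min. In vehicle, 4 of 10553 transcripts and at 1.5 µM 1 of 10570 were beyond a Z-score of 3. Of the 31, 29 had the same sign in vehicle and 13 at 1.5 µM.

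Ribosome density was then compared by codon identity. Over 6342 transcripts, 0 of 61 sense codons in the A site, where the next aminoacyl-tRNA is read, passed (limma, Benjamini-Hochberg adjusted p under 0.1), and 8 had an unadjusted p under 0.05, all 8 with the same sign in vehicle. Leaving out the replicate 2 pair, 5 codons passed, and with the P site in place of the A site 6 did. The tyrosine codon TAC had the smallest p, with densities relative to the CDS of 1.13, 1.15 and 1.17 at 10 min and 1.45, 1.31 and 1.37 at 60 min, without overlap (log2 fold change 0.26, SE 0.06, limma adjusted p = 0.128), and a log2 fold change of 0.27 in vehicle. The glutamate codon GAA went from 1.79, 1.57 and 1.68 to 1.43, 1.53 and 1.25, without overlap (log2 fold change -0.26, SE 0.08, limma adjusted p = 0.219), and had -0.35 in vehicle. The aspartate codons GAC and GAT had mean densities of 2.04 and 1.95 at 10 min and of 2.10 and 1.95 at 60 min.

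Compound-sensitive genes are those on whose nascent chains the compound stalls ribosomes. The list of 21 was chosen by the study on libraries of this series, and its depletion of reads against vehicle is not independent evidence. For each, the boundary was the codon at which cumulative reads differed most between 1.5 µM and vehicle in the second study, whose libraries are not among the 6 compared here, and for all other transcripts codon 50. Between 10 and 60 min at 0.3 µM, reads 3′ to the boundary changed in 83 of 10901 transcripts (0.761%; edgeR, adjusted p under 0.1), and in 0 of the 21. The median log2 fold change of the 21 was 0.08, against 0.00 over all transcripts. At an unadjusted p under 0.05 there were 3 of the 21, against 774 of all 10901 transcripts. The 3 were USO1 (-0.31), EMC7 (0.29) and PCBP2 (0.21), with edgeR adjusted p of 0.46, 0.56 and 0.624. The difference of this time effect from that in vehicle passed for 0 of 11013 transcripts, with 263 at an unadjusted p under 0.05.

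The codons around the boundary are shown for 5 of these genes. They are the 4 members with most reads in the second study among those whose window lies in a single exon, and EMC7, whose unadjusted p was under 0.05. Each window has the boundary codon in capitals between 4 codons on each side. The windows are read from GRCh38 on the strand of the gene, 5′ to 3′, within the coding exon.
PCBP1, chr2:70087831-70087857, plus strand: gggaagaaagggGAGtcggttaagagg
CDH1, chr16:68828218-68828244, plus strand: gtcaaagagcccTTActgcccccagag
MDK, chr11:46382305-46382331, plus strand: aagggcggcccgGGGagcgagtgcgct
BCAP31, chrX:153720945-153720971, minus strand: tggcagaagattTTCaagtcccggctg
EMC7, chr15:34101732-34101758, minus strand: ggggctgctgctGAGggatcgggaggg
The boundary codons were 34 in PCBP1 and MDK, 741 in CDH1, 36 in BCAP31, 32 in EMC7, 30 in RPL27 and 33 in PCBP2, counted from the start codon.

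Relative to vehicle at the same time, reads 3′ to the boundary at 0.3 µM were lower in 20 of the 21 genes at 10 min and in 21 at 60 min, with median log2 ratios of -0.42 and -0.37. These are ratios of group means that were not tested, and the share of all transcripts below vehicle was not taken. At 1.5 µM the medians were -1.32 and -1.25, and 21 of 21 genes lay below their 0.3 µM value at both times. RPL27, a large-subunit ribosomal protein, had 614, 527 and 684 CPM 3′ to its boundary at 10 min and 774, 670 and 573 CPM at 60 min, with overlap, and log2 ratios to vehicle of -0.72 and -0.53. PCBP2, an RNA-binding protein of poly(C) tracts, had 557, 657 and 653 CPM at 10 min and 713, 714 and 728 CPM at 60 min, without overlap, and ratios of -0.42 and -0.24. Its close paralog PCBP1 had 531, 505 and 568 CPM at 10 min and 510, 582 and 561 CPM at 60 min, with overlap, and ratios of -0.48 and -0.42. According to the study, most reads cannot be assigned to either paralog alone, so their values are not independent. How many reads they shared was not measured here.

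MDK, the secreted growth factor midkine, had 97.8, 93.7 and 120 CPM at 10 min and 93.4, 130 and 125 CPM at 60 min, with overlap, and ratios of -0.89 and -0.63. At 1.5 µM its ratio was -1.86 at both times. BCAP31, a chaperone-like protein of the ER membrane, had 148, 254 and 197 CPM at 10 min and 192, 234 and 234 CPM at 60 min, with overlap, and ratios of -0.39 and -0.45. CDH1, the epithelial adhesion protein E-cadherin, had ratios of -0.42 and -0.52. IFI30, a lysosomal thiol reductase, was the single gene not below vehicle at 10 min, with ratios of 0.07 and -0.20. Of the 21, 12 were nearer to vehicle at 60 min than at 10 min, and the other 9 were not.

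The share of CDS reads up to the boundary gives the same comparison within each gene. It was above vehicle on average in 21 of 21 genes at 10 and at 60 min, and in 15 of 21 at each time all 0.3 µM libraries stood above all vehicle libraries, against 4.14% of 10617 transcripts at 10 min and 4.27% of 10532 at 60 min. The list was chosen for this property at 1.5 µM. Transcripts outside the list were cut at codon 50 and not at a codon chosen by the effect of the compound. The 4.14% and 4.27% are therefore not for quite the same measure as the 15 of 21. The median share over the 21 genes was 23.4% at 10 min and 22.5% at 60 min at 0.3 µM, 12% and 11.9% in vehicle, and 45.3% and 41.4% at 1.5 µM. In RPL27 it was 32.6%, 54.0% and 44.5% at 10 min and 35.4%, 50.0% and 56.9% at 60 min, against 17.2% ± 4.07 and 24.6% ± 3.84 in vehicle (SD, n = 3). In PCBP2 it was 20.1%, 24.7% and 19.2% at 10 min and 17.8%, 18.2% and 21% at 60 min, against 8.33% ± 0.295 and 9.80% ± 1.51 in vehicle. In MDK it was 28.7%, 16% and 21.8% at 10 min and 21.8%, 17.7% and 18.6% at 60 min, against 10.7% ± 3.50 and 9.25% ± 1.71. In these 3 genes every 0.3 µM library stood above the vehicle means of its time, and the 10 and 60 min values at 0.3 µM overlapped.

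**Figure D5:**
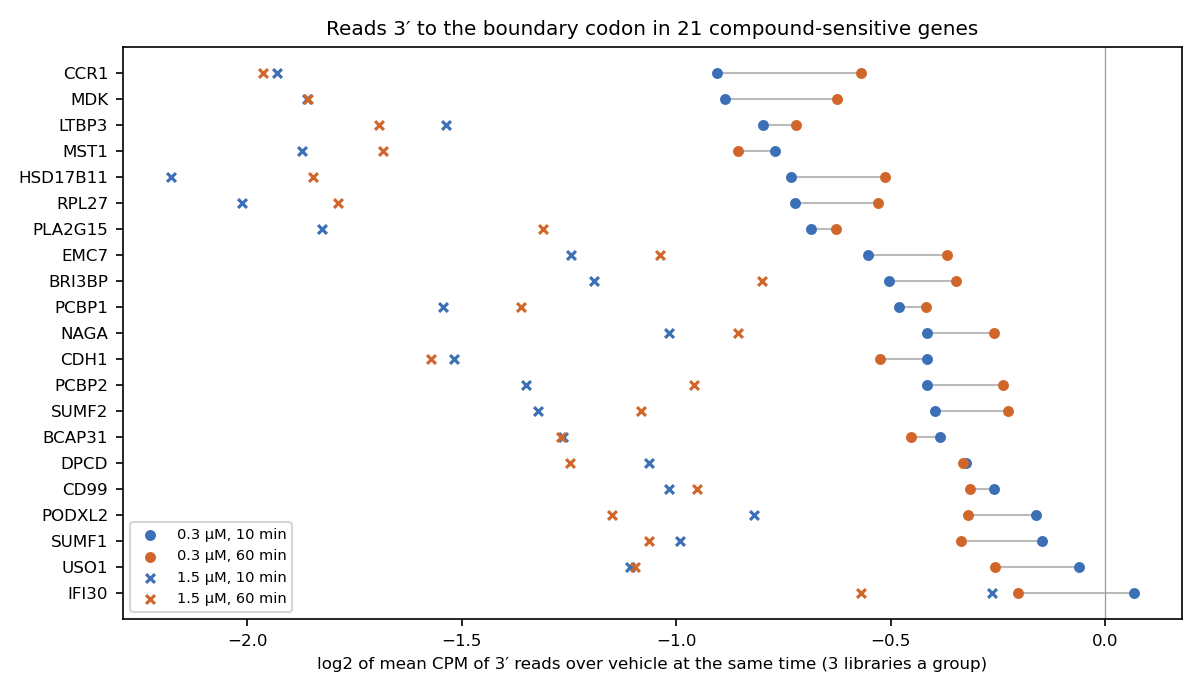
Log2 of the mean CPM of reads 3′ to the boundary over vehicle at the same time, for 21 compound-sensitive genes, with circles at 0.3 µM and crosses at 1.5 µM, blue for 10 min and orange for 60 min, 3 libraries a group. At 0.3 µM the points lie between those of vehicle (0) and of 1.5 µM in both time groups, apart from IFI30 at 10 min (0.07).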

How the data were processed

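The deposited codon maps hold raw counts of reads at each P-site codon. The authors aligned reads with Bowtie 1.1.2 to a GRCh38 transcriptome of the most abundant isoform of each expressed gene. Reads with a few equally good sites were counted at each, and reads with more sites were discarded, which can lower the counts of many-copy families such as histones. Counts were summed over each CDS. Transcripts were tested with edgeR 4.0.16 (R 4.3.3; filterByExpr, TMM, quasi-likelihood test, replicate number as block), with Benjamini-Hochberg adjustment over all transcripts and a threshold of 0.1. DESeq2 1.42.0 was an alternative, and limma 3.58.1 was used for A-site densities. Codons needed 20 reads on average, the center of density 10 reads in each library, with Z-scores in bins of 300 transcripts, regions at least 200 codons and 20 reads, and codon identity 100 reads, leaving out 15 codons at each end. Scripts were tested on simulated data. Depth ran from 7775919 to 21498137 CDS reads a library, and precision is that of 3 replicates.

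Same-numbered libraries at 0.3 µM correlated above 0.1 in each of the 3 pairs, more than any others, and the block was taken as the main fit. With 3 libraries a time such a match can arise by chance, so it does not establish the pairing. The labels do not say what a number marks, and the block in vehicle and at 1.5 µM is not backed by the data. Named were the 12 highest and 12 lowest fold changes among transcripts that passed with at least 50 reads and moved the same way in 3 of 3 pairs. Also named were up to 6 passing members of each list, the 2 most-read members of lists with none, and the compound-sensitive genes. The members and lists were chosen with earlier results of these data known. Names came from GENCODE v44 for 11270 transcripts and from the study's supplement for 228, while 827 had none. Some items that the rule names are not reported here. The mRNA libraries and the second study were not analysed for these comparisons, apart from the boundary codons.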

Additional observations from a re-analysis of the deposited data

How the results depend on the processing

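Without the replicate block, 1 transcript passed at 0.3 µM in place of 107. DESeq2 with the block gave 68, a fit to all 18 libraries of the first study gave 10, and leaving out one pair at a time gave 33 to 169. Other settings kept the count within 1.5 times, at 126 with DESeq2 size factors, 148 without the filter on low counts, 83 with codons after 50, 101 without 15 codons at each end and 78 at a threshold of 0.05. Of 35 genes named by rule that passed, 1 still passed without the block, 21 of 34 with DESeq2, 6 in the fit to 18 libraries, and no direction was reversed. Of 14 named genes that did not pass, 1 passed with DESeq2 size factors, 1 without the filter and 2 without replicate 1. Both interaction tests gave 0 in every setting. Single codons gave 0 to 4394 with one pair left out. The center of density gave 31 beyond a Z-score of 2, and beyond 3, where the paired value was 0, it gave 51 without the block and 1 to 15 with one pair left out. These last counts rest on a single Z-score or on a mean over fewer pairs, for which the same cut is less strict. A-site codons gave 6 at the P site, 2 with 200 reads, 1 with pooled reads and 0 to 5 with one pair left out. Small differences changed sign with one pair left out: density over codons 2 to 15 (-0.00828 to 0.0314) and 2 to 50 (-0.00525 to 0.0219), lowest without replicate 1, over codons 51 to 150 (-0.00825 to 0.0190), lowest without replicate 3, and the log2 fold changes of CALR (-0.037 to 0.20, lowest without replicate 3), HSP90B1 (-0.15 to 0.038, highest without replicate 2) and LYZ (-0.057 to 0.22, lowest without replicate 1). The causes were not tested. The 21 compound-sensitive genes gave 0 in every setting. With 3 pairs, a permutation test of one value cannot go below 0.25.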
